A study of Mus musculus with 4 samples.

Results

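The 9 genes Ctsa, Ctsb, Ctsc, Ctsd, Ctsh, Ctsk, Ctsl, Ctss and Ctsz, which encode cathepsins, were followed by cell class and day in the mouse carotid artery after wire injury. They were chosen by name, from 31053 genes listed, and all 9 had UMIs (unique molecular identifiers, each a counted transcript) in every library. The vessels were carotid arteries of male C57BL/6 mice aged 11 weeks before injury. The day 0 library came from vessels before injury, and the libraries of days 3, 7 and 14 came from vessels taken on those days after a wire had been passed through the lumen, in the deep form of this injury that breaks the internal elastic lamina. Per the study's methods, the mice ate chow, arteries of several mice were pooled for each time point and thrombosed vessels were left out. The tissue was digested with collagenases and hyaluronidase, dead cells were removed with magnetic beads and droplet libraries were made with a 3′ kit. The digestion was the same on all 4 days, per the labels and the paper. Each day was 1 library of pooled mice, so there were no replicates, no test between days could be made, and day and library cannot be told apart.

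Cathepsins are proteases of the lysosome and are best known for breaking down proteins that a cell takes up or discards. Ctsb, Ctsc, Ctsh, Ctsk, Ctsl, Ctss and Ctsz encode cysteine proteases, Ctsd an aspartic protease, and Ctsa a serine carboxypeptidase that also shields lysosomal neuraminidase and β-galactosidase. Several members are secreted in remodelling arteries, where cathepsins K, L and S can cut elastin or collagen, and cystatins are their main extracellular inhibitors.

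The deposited matrices held 333, 1689, 3001 and 1138 barcodes for days 0, 3, 7 and 14, with 2672722 to 27973418 UMIs a library. Of all 6161 barcodes, 217 occurred in 2 libraries. In 214 of these pairs the copy with fewer UMIs held under 20% of the UMIs of the other, with a median of 4.66% in 104 day 3 copies of day 0 cells, 0.915% in 48 day 0 copies of day 3 cells and 1.12% in 62 day 14 copies of day 7 cells. These copies were left out of the sums, a choice made after seeing the data, because with them 93 of 208 fibroblast-like cells of day 3 and 11 of 23 smooth muscle-like cells of day 0 were copies. The 5408 cells kept (281, 1405, 2693 and 1029 by day) had a median of 5458 to 10764 UMIs a library and fell into 43 clusters. The clusters were named from marker genes as fibroblast-like, smooth muscle-like, endothelial-like, monocyte/macrophage-like, dendritic-like, neutrophil-like, T cell-like, NK cell-like and B cell-like, and 662 cells (12.2%) stayed unnamed. All 12 fibroblast markers, including Pdgfra and Dcn, were above 50 CPM in fibroblast-like cells of every day, and 14 or 15 of 15 monocyte/macrophage markers were above it in their class. Myh11, Acta2 and the other smooth muscle markers were all present in smooth muscle-like cells from day 3 on, with 9 or 10 of 12 above 50 CPM. Fibroblast-like cells numbered 203, 123, 179 and 495, smooth muscle-like cells 12, 98, 64 and 76, and monocyte/macrophage-like cells 2, 532, 903 and 166 at days 0, 3, 7 and 14.

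A level is given as CPM, a gene's UMIs scaled to the total UMIs of all cells of a class on a day, with an exact Poisson 95% interval in brackets. A ratio of 2 levels carries an exact binomial 95% interval. All intervals cover counting error only. A gene is called higher or lower, and is said to have risen or fallen, when its ratio passed 2-fold with 10 CPM added to both levels and at least 20 UMIs over both. The kit reads transcript 3′ ends, so CPM was not divided by length. How well each transcript was captured was not tested, and levels of different genes are set side by side only as measured.

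Promoter windows from RefSeq (mouse build GRCm38.p6, 250 bases before to 50 bases after a start) were read for 7 of the 9 members, with 8 windows in all. Ctsb and Ctsh had no entry. A pair of motifs was searched on both strands. CACGTG, a palindrome, is the core of the CLEAR element of many lysosomal genes and was held by windows of 3 members (Ctsa, Ctsd and Ctsl) and by 7.15% of 32851 windows of 300 bases. GAGGAA, which reads TTCCTC on the other strand, holds the core letters bound by the myeloid factor PU.1 and was held by windows of 3 members (Ctsc, Ctsk and Ctss) and by 28.3% of all windows. No window of a member held both. The Ctsl window lay wholly inside the annotated gene (chr13:64361890-64370772). Ctsa had another window at the start of its annotated gene (chr2:164832622-164832921), which held neither motif. The windows of the lysosomal CACGTG genes and of Ctsk and Ctss, the one highest in fibroblast-like and the other in monocyte/macrophage-like cells, are printed with the motifs in capitals, 5′ to 3′ along the gene.
Ctsa (chr2:164833523-164833822, plus strand): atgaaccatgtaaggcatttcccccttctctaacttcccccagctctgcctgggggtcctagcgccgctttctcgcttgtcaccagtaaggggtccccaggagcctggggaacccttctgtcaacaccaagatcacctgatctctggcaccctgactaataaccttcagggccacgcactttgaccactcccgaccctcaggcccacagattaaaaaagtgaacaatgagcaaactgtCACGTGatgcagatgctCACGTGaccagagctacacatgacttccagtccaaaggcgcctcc
Ctsd (chr7:142387778-142388077, minus strand): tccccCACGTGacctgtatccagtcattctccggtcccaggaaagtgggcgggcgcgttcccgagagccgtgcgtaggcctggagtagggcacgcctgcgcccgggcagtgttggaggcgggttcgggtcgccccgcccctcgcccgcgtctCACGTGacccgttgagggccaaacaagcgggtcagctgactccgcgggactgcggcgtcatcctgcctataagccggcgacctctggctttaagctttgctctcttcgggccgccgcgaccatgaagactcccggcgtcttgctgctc
Ctsl (chr13:64370471-64370770, minus strand): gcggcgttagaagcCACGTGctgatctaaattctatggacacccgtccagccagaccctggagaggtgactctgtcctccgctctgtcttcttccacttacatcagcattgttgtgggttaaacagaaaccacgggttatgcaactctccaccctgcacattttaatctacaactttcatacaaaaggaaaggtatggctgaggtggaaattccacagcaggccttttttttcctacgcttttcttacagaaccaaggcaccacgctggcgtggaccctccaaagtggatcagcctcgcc
Ctsk (chr3:95498960-95499259, plus strand): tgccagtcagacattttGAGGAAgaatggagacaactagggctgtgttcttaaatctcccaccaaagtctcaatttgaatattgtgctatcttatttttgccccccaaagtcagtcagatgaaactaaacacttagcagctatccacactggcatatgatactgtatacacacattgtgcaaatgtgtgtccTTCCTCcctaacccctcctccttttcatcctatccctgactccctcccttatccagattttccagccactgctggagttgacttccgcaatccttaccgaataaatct
Ctss (chr3:95526536-95526835, plus strand): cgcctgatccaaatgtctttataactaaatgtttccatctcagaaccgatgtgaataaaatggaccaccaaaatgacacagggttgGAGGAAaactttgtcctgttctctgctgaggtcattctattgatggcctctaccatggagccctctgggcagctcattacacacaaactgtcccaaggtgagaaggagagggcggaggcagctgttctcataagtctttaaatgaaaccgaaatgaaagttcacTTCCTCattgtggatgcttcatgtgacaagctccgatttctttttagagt
Ctsk and Ctss lie on the same chromosome, both on the plus strand, and each of their windows held GAGGAA or TTCCTC 2 times. A match is a description of the letters and not of a bound site.

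The classes differed in which cathepsin they held (the map of levels by class and day). Fibroblast-like cells were highest in Ctsl and Ctsk, monocyte/macrophage-like cells in Ctsb, Ctsc, Ctss, Ctsz and Ctsa, neutrophil-like cells in Ctsd and dendritic-like cells in Ctsh, where Ctsz and Ctsh overlapped between monocyte/macrophage-like and dendritic-like cells. Over the days with at least 20 cells, Ctsl, a broad endopeptidase, ran from 1019 to 2399.9 CPM in fibroblast-like cells, and no other class reached this range. Smooth muscle-like cells followed at 422 to 576 CPM from day 3 on, a range that overlapped that of monocyte/macrophage-like cells (278 to 780.4 CPM). Ctsk, the collagenase of osteoclasts, ran from 222 to 557 CPM in fibroblast-like and from 47.9 to 72.0 CPM in smooth muscle-like cells, and stayed at or below 10.8 CPM elsewhere except in monocyte/macrophage-like cells of day 7. Ctss, which trims the invariant chain of MHC class II, was at 1913 to 2079 CPM in monocyte/macrophage-like cells, 1104 to 1449.99 CPM in dendritic-like cells and 447 (313 to 618) CPM in B cell-like cells, and these ranges did not overlap.

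**Figure D1:**
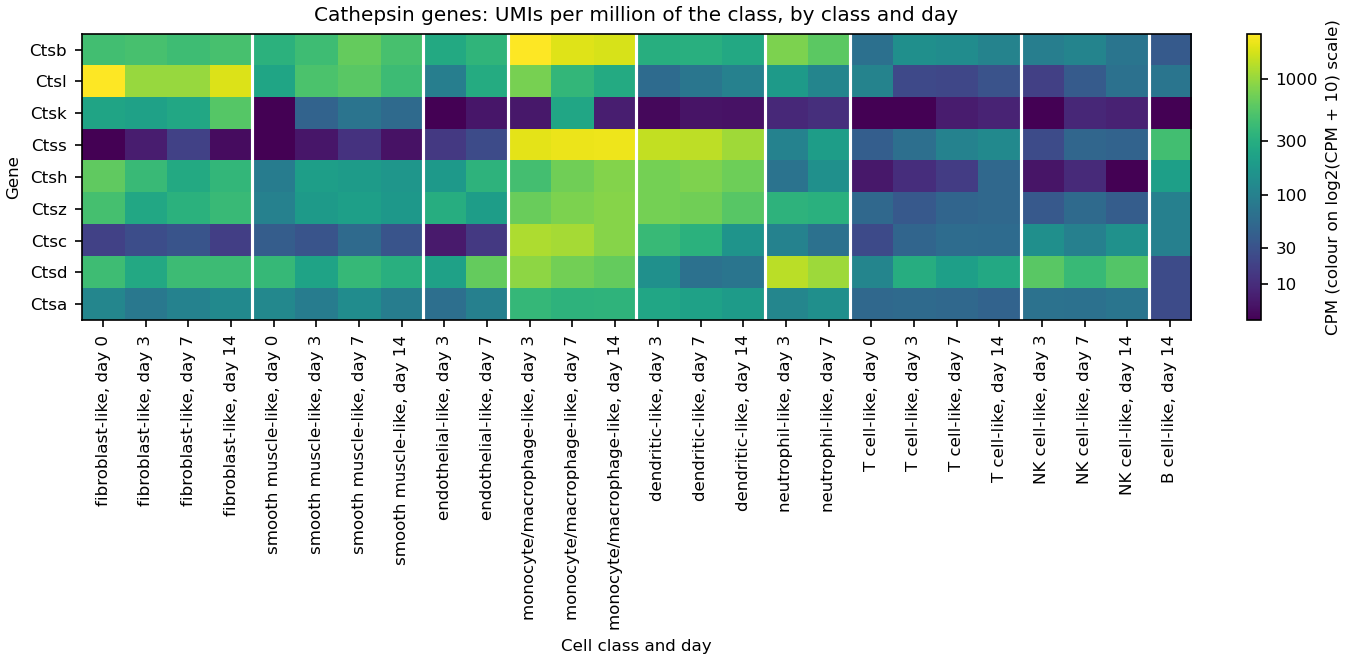
Levels of the 9 genes (rows) in each class and day with at least 20 cells, and in the 12 smooth muscle-like cells of day 0 (columns), with colour for CPM on the log2(CPM + 10) scale. Ctsl and Ctsk are brightest on the fibroblast-like side, Ctss and Ctsc in monocyte/macrophage-like and dendritic-like columns, and Ctsd is bright in neutrophil-like columns as well.

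Ctsb, an endopeptidase that also trims dipeptides, was at 1717 to 2399.6 CPM in monocyte/macrophage-like cells, above neutrophil-like (601 and 812 CPM), smooth muscle-like and fibroblast-like cells (428 to 479 CPM), and the last 3 classes overlapped one with the next. Ctsc, which activates serine proteases of leukocyte granules, ran from 875 to 1225 CPM in monocyte/macrophage-like, 161 to 392 CPM in dendritic-like and 99.9 to 149.8 CPM in NK cell-like cells. In fibroblast-like cells Ctsc did not exceed 32.0 CPM. The exopeptidase genes Ctsh and Ctsz spanned stromal and myeloid classes. Ctsh was at 701 to 830.3 CPM in dendritic-like and 456 to 864 CPM in monocyte/macrophage-like cells, 2 ranges that overlapped, and fibroblast-like cells reached 617 CPM at day 0. Ctsd was at 1079 and 1368 CPM in neutrophil-like cells, above monocyte/macrophage-like (653 to 943 CPM) and NK cell-like cells (391 to 583 CPM), while dendritic-like cells were low at 66.7 to 148 CPM. Ctsa had the smallest ratio of the highest to the lowest class, 14.0 between class medians, with levels from 24.8 CPM in B cell-like to 372 CPM in monocyte/macrophage-like cells. The lowest value rests on 2 UMIs in 21 B cell-like cells of day 14, so the ratio is imprecise.

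The classes that held the cathepsin transcripts of each library differed between days, as did the cells recovered. At day 0, fibroblast-like cells held 84.0% of all UMIs and 98.1% of Ctsl, 98.9% of Ctsk, 97.2% of Ctsh and 95.6% of Ctsz. No UMI of Ctss was among the 2191362 UMIs of fibroblast-like cells of that day, and 11 of its 26 UMIs lay in 2 monocyte/macrophage-like cells. At day 3, monocyte/macrophage-like cells held 30.5% of all UMIs and 82.6% of Ctsc, 72.4% of Ctss, 71.5% of Ctsb and 58.4% of Ctsd, and fibroblast-like cells still held 87.7% of Ctsk and 48.2% of Ctsl. At day 7, monocyte/macrophage-like cells held 36.1% of all UMIs and 74.6% of Ctsb and 54.6% of Ctsk, the latter almost all in 2 cells of 903. At day 14, fibroblast-like cells held 68.5% of all UMIs and again 97.6% of Ctsk and 93.2% of Ctsl, whereas monocyte/macrophage-like cells held 84.0% of Ctss and 80.1% of Ctsc with 11.9% of all UMIs. These shares describe the cells that survived digestion and not the artery itself.

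**Figure D2:**
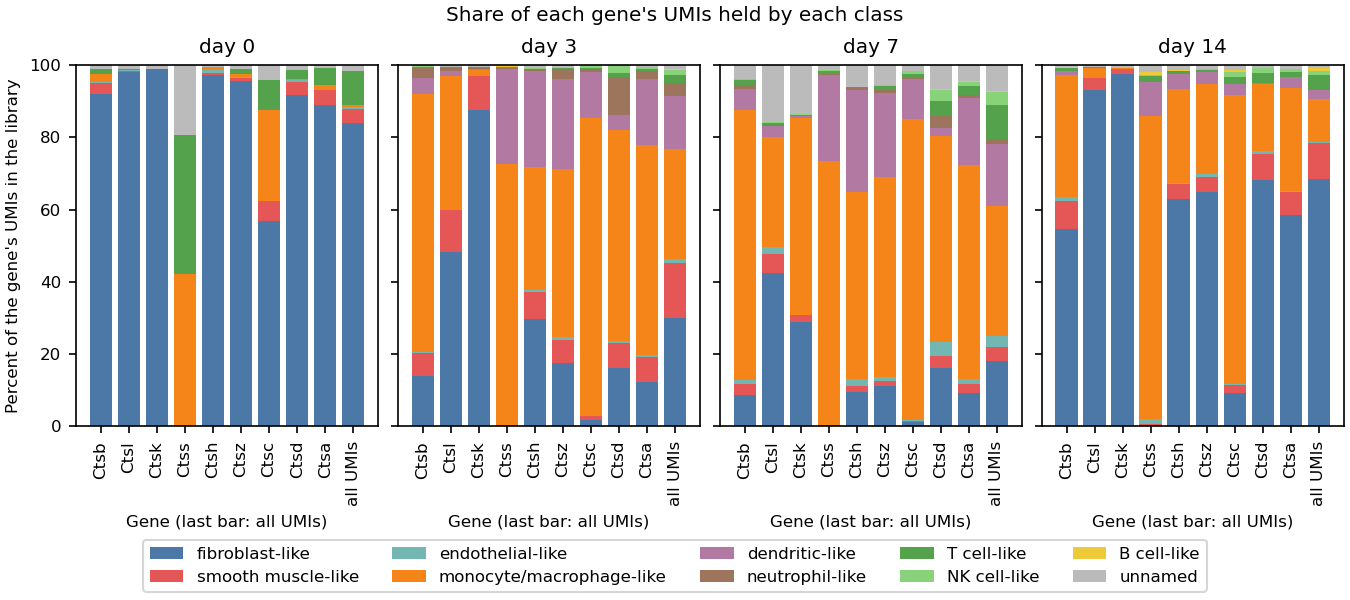
Share of each gene's UMIs (vertical axis, percent) held by each class in the libraries of days 0, 3, 7 and 14, with the share of all UMIs as the last bar of each panel. Blue (fibroblast-like) fills the Ctsl and Ctsk bars of days 0 and 14, and orange (monocyte/macrophage-like) fills most of the Ctss and Ctsc bars from day 3 on.

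In fibroblast-like cells, the summed level of the 9 genes was 4729 CPM before injury and 2764, 2866 and 4156 CPM on days 3, 7 and 14. Ctsl made up 50.7%, 37.3%, 35.6% and 43.1% of these UMIs. Its level was 2399.9 (2335 to 2466), 1030.3 (1004 to 1058), 1019 (991 to 1048) and 1793 (1766 to 1821) CPM at days 0, 3, 7 and 14. Ctsl thus fell at day 3, with a ratio of 0.429 (0.413 to 0.446) to day 0, and at day 7, with a ratio of 0.425 (0.408 to 0.442), and stood at 0.747 (0.724 to 0.771) of day 0 at day 14, short of a call. Both falls held in every alternative, with log2 ratios from -1.25 to -1.07 at day 3 and from -1.42 to -1.02 at day 7. Each cell was also thinned to 1000 UMIs, which left out the 4, 3, 6 and 10 fibroblast-like and 0, 2, 6 and 4 T cell-like cells with fewer. Ctsl was then seen in 86.9%, 58.3%, 60.1% and 76.9% of fibroblast-like cells, against 13.0%, 1.56%, 2.96% and 4.35% of T cell-like cells. Without thinning, the shares were 99.0%, 91.9%, 89.4% and 95.2% in fibroblast-like cells, whose median depth was 10181, 38871, 19335 and 18650 UMIs, and 13.0% in T cell-like cells of day 7, whose median was 5583 UMIs.

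Ctsk moved on another course. Its level in fibroblast-like cells was 238 (218 to 259.5), 222 (210.1 to 235) and 259.8 (246 to 275) CPM at days 0, 3 and 7 and 557 (542 to 573) CPM at day 14, and the first 3 days lay close together. It rose at day 14 alone, with a ratio of 2.34 (2.14 to 2.56) to day 0. As the mean of each cell's CPM, which weights shallow and deep cells alike, the log2 ratio was 0.87 and the call was lost, whereas it was 1.19 to 1.28 in the other alternatives. At 1000 UMIs a cell, Ctsk was seen in 24.6%, 22.5%, 23.1% and 39.6% of fibroblast-like cells and in at most 1.09% of T cell-like cells. The unthinned shares were 79.3%, 87.0%, 74.3% and 90.7% in fibroblast-like cells.

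Different clusters made up the fibroblast-like cells of each day. Day 0 cells lay mostly in clusters led by Rbp4 and Fmo2 (105 cells) and by AI507597 and Rbp4 (54 cells), day 3 cells in those led by Saa3 and Prg4 (42), Tnfrsf11b and Ly6a (40) and cell cycle genes (20), day 7 cells in those led by Eln and Meg3 (50), cell cycle genes (31) and Cpxm2 (26), and day 14 cells in those led by Comp and Col4a5 (89), Cpxm2 (88) and C1qtnf3 and Thbs4 (66). Ctsl was 2682 and 2669.7 CPM in the 2 main clusters of day 0, 1014 CPM in the Saa3 cluster, 706 CPM in the cycling cluster and 531 CPM in the Eln cluster. Ctsk was 117 CPM in the cycling cluster and 633 and 609 CPM in the C1qtnf3 and Cpxm2 clusters. Within 3 of the clusters that held cells of 2 days, Ctsk was also over 2-fold higher on the later day. Its ratios are not given for others, among them the Saa3 (42 and 24 cells of days 3 and 7), cycling (20 and 31) and Eln clusters (50 and 27 cells of days 7 and 14). Ctsk went from 272 CPM in 105 cells of day 0 to 593 CPM in 16 cells of day 14 in the Rbp4 and Fmo2 cluster, a ratio of 2.18 (1.79 to 2.64). Those 16 cells are under the 20 asked of most class sums. In the Igfbp5 and Sema3c cluster the ratio of day 14 to day 0 was 2.56 (1.83 to 3.68), with 48 and 25 cells, and in the Cpxm2 cluster that of day 14 to day 7 was 2.26 (1.97 to 2.61), with 88 and 26 cells, while the Comp and Col4a5 cluster gave 1.32 (1.16 to 1.52) for the same days. For Ctsl the first 3 of these ratios were 1.19 (1.10 to 1.28), 0.727 (0.663 to 0.798) and 1.92 (1.77 to 2.08).

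Counted over all 9 members, fibroblast-like cells had 0 higher and 1 lower (Ctsl) at day 3, where 4.57% and 4.31% of all genes tested were called. At day 7 there were 1 higher (Ctss) and 2 lower (Ctsl and Ctsh), against 5.37% and 3.75% of all genes. At day 14 there were 1 higher (Ctsk) and 0 lower among 8 members with enough UMIs, against 2.42% and 1.63%. The median log2 ratio of the members was -0.46, -0.07 and -0.04 at days 3, 7 and 14, beside -0.03, 0.04 and -0.01 over all genes.

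Ctsh, an aminopeptidase, was at 617, 403, 268 and 364 CPM at days 0, 3, 7 and 14 and fell at day 7, with a ratio of 0.435 (0.403 to 0.470) to day 0. The fall was short of a call, at a log2 ratio of -0.95, with the libraries clustered singly. Markers of some other cell types were highest at day 7 in these sums, and those of others were lowest. The 12 smooth muscle markers together were at 567, 712, 2346 and 656 CPM at days 0, 3, 7 and 14. The 14 dendritic markers were at 44.3, 114, 350.2 and 108 CPM. T cell markers were at 1.83, 3.30, 17.4 and 4.71 CPM and NK cell markers at 0, 9.16, 28.7 and 2.58 CPM. Lowest at day 7 were endothelial markers (361, 128, 118 and 131 CPM) and neutrophil markers (109, 37.4, 27.8 and 43.0 CPM). So were B cell markers (546, 342, 288 and 663 CPM), plasmacytoid dendritic markers (701, 680, 644 and 676 CPM) and the monocyte/macrophage markers given below. The part of such transcripts in the changes of day 7 was not tested. Within the Saa3 and Prg4 cluster, Ctsh had 492 and 178 CPM in the cells of days 3 and 7, a ratio of 0.362 (0.309 to 0.423), and within the Igfbp5 and Sema3c cluster its ratio of day 14 to day 0 was 0.464 (0.359 to 0.601). Ctsz, a carboxypeptidase, was at 466, 258, 321 and 399 CPM, lowest at day 3 with a ratio of 0.554 (0.511 to 0.601), and was not called. Ctsd, the main aspartic protease of the lysosome, was at 427, 263, 415 and 419 CPM and Ctsa at 114, 79.8, 103 and 124 CPM, and both were lowest at day 3 in these sums. Ctsb was at 449, 475, 428 and 479 CPM, with ratios to day 0 of 1.06 (0.982 to 1.14), 0.953 (0.883 to 1.03) and 1.07 (0.995 to 1.14). Without cells over 30000 UMIs, which left 53 cells at day 3, the log2 ratios of that day were -0.01 for Ctsd, 0.08 for Ctsa and 0.70 for Ctsb, against -0.68, -0.46 and 0.08 with them. Ctsc was at 18.7, 26.7, 32.0 and 17.5 CPM. Its log2 ratio of day 7 was 0.55 in the sums, 1.25 as the mean of each cell's CPM and -0.02 in the alternative where it was lowest.

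Ctss in fibroblast-like cells had no UMI before injury and stood at 5.68, 18.8 and 2.02 CPM on days 3, 7 and 14, and day 7 was the one day called. These levels were 4.15, 13.8 and 1.47 times a floor of 3 UMIs in the day 0 sum, values that leave out counting error in the later levels. The 15 monocyte/macrophage markers summed to 2791, 622, 595 and 2544 CPM in these cells at days 0, 3, 7 and 14. At day 0, 8 of 15 were at 0 and 1 was above 50 CPM. On the later days 1, 1 and 2 were at 0 and 2 were above 50 CPM. The part of macrophage RNA in the Ctss level was not tested. In a shorter list of macrophage genes, Lyz2, C1qa, C1qb, Pf4, Tyrobp and Fcer1g together were at 52.4, 105 and 23.5 CPM at days 3, 7 and 14, and if all of these came from monocyte/macrophage-like cells of the same library, they would bring up to 4.77, 10.4 and 2.25 CPM of Ctss. The measured level was 1.19, 1.81 and 0.894 times that. With each library clustered on its own, the log2 ratio of day 7 was 0.09 and the call was lost. At 1000 UMIs a cell, Ctss was seen in 2.89% of fibroblast-like cells of day 7 (21.2% unthinned), below 9.95% of T cell-like cells (40.7% unthinned). Ctsc in fibroblast-like cells was 8.74, 5.47 and 18.4 times the level computed in this way from the same macrophage genes at days 3, 7 and 14, and its source was not tested.

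**Figure D3:**
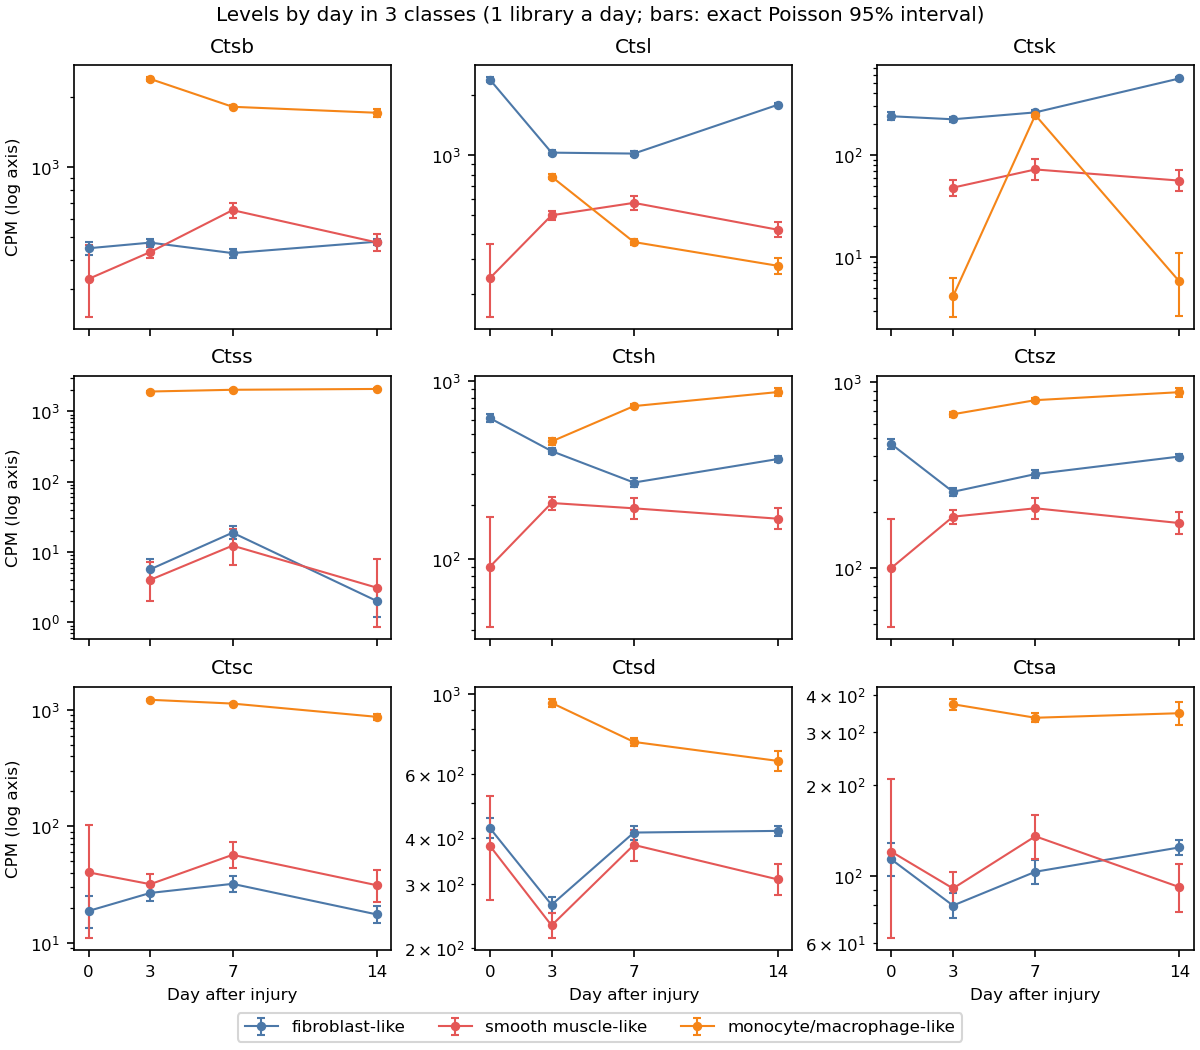
Level of each gene (CPM, log axis) against day after injury in fibroblast-like, smooth muscle-like and monocyte/macrophage-like cells, with exact Poisson 95% intervals as bars and values of 0 or of fewer than 12 cells left out. Ctsl dips at days 3 and 7 in fibroblast-like cells, Ctsk is highest at day 14 there, and the orange Ctsk point of day 7 stands far above those of days 3 and 14.

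Genes that act with the cathepsins also differed between days in fibroblast-like cells. Of 16 inhibitor genes, 6, 8 and 7 had enough UMIs at days 3, 7 and 14, of which 2, 2 and 1 were higher and 1, 1 and 2 lower than at day 0. Cst3, which encodes the secreted inhibitor cystatin C, was at 17015 CPM at day 0 and fell to 0.103 (0.101 to 0.106), 0.194 (0.190 to 0.197) and 0.438 (0.433 to 0.444) of that level at days 3, 7 and 14. The serpin gene Serpinb6b rose at day 3, by a ratio of 3.91 (3.39 to 4.53), and fell at day 14, to 0.296 (0.246 to 0.357). Serpina3n rose at days 3 and 7, by 3.41 (2.65 to 4.45) and 2.89 (2.23 to 3.78). Among the other cathepsins of the files, Ctsf fell to 0.174 (0.135 to 0.221) at day 3 and 0.448 (0.370 to 0.542) at day 7, a call that median-of-ratios scaling did not give. Other lysosomal hydrolase genes that fell at day 3 included Hexa, Gaa and Man2b1, at 0.296, 0.399 and 0.418 of their day 0 levels. Lgmn rose, which encodes the protease legumain that processes cathepsin precursors (ratio 2.17, interval 1.84 to 2.57). At day 14, Acp5, a phosphatase gene known from osteoclasts, was the 1 called, with 10.5 CPM at day 0, 79.8 CPM at day 14 and a ratio of 7.60 (5.02 to 12.1).

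In the sorting list, Gnptg, a subunit of the enzyme that makes the mannose 6-phosphate tag of lysosomal proteins, fell to 0.20 (0.155 to 0.256) at day 3 and 0.266 (0.209 to 0.338) at day 7, and Igf2r, a receptor for that tag, rose at day 7 (ratio 2.98, interval 2.50 to 3.58). No gene of the neuraminidase and galactosidase complex of Ctsa (Neu1, Glb1 and Galns) was called on any day. Tfeb, Tfe3 and Mitf, transcription factor genes of the lysosome, were not called either, with Mitf at 0.470 (0.312 to 0.708) and 0.439 (0.285 to 0.675) of its day 0 level at days 3 and 7. Of 15 membrane and acidification genes tested, 0 were called at day 3 and 1 at day 7, Laptm5, a leukocyte gene. The class II genes Cd74, H2-Aa and H2-Ab1 were called at day 3 and, with H2-Eb1, at day 7, when Cd74 reached 210.04 CPM. The source of these leukocyte transcripts was not tested.

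Smooth muscle-like cells at day 0 were 12 in number with 99565 UMIs, so every ratio to day 0 has a wide interval. Ctsl was at 241 (154 to 359) CPM at day 0 and at 499, 576 and 422 CPM at days 3, 7 and 14. It rose at days 3 and 7, with ratios of 2.07 (1.39 to 3.24) and 2.39 (1.59 to 3.76). Ctsh was at 90.4 (41.3 to 172) CPM at day 0, then 206, 192 and 168 CPM, and was also called at days 3 and 7, with ratios of 2.28 (1.19 to 5.01) and 2.13 (1.10 to 4.72). Both calls of day 7 were lost without cells over 30000 UMIs (log2 ratios of 0.94 for Ctsl and 0.46 for Ctsh), that of Ctsl also as the mean of each cell's CPM (0.68) and that of Ctsh in 2 other alternatives. Ctsk had 0 UMIs at day 0 and 47.9, 72.0 and 56.1 CPM later. These levels were 1.59, 2.39 and 1.86 times a floor of 3 UMIs in the day 0 sum. Counting error in the later levels is left out of these values, so they are not lower limits, that of day 7 included. With 10 CPM added Ctsk passed 2-fold at all 3 days, but against the floor days 3 and 14 stay under 2-fold. Fibroblast transcripts were present in the same cells, since Col1a1, Col1a2, Col3a1 and Dcn together were at 8130, 11031 and 8159 CPM. If all of these came from fibroblast-like cells of the same library, 38.2, 46.3 and 55.9 CPM of Ctsk would come with them, and the measured level was 1.25, 1.56 and 1.00 times that. Smooth muscle cells can transcribe these collagen genes themselves, and the part of fibroblast RNA was not tested.

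Of the 9 members, 3, 3 and 1 were higher in smooth muscle-like cells at days 3, 7 and 14 among 8 tested each time and 0 were lower. The background was 16.6%, 12.5% and 10.6% of all genes higher and 9.4%, 6.03% and 6.18% lower. Without cells over 30000 UMIs, the log2 ratios of day 3 were 0.27 for Ctsl and -0.02 for Ctsh, with no call, and Ctsk (28.4 CPM) had too few UMIs to be called. Ctsb was at 331 (228 to 465) CPM before injury, 655 (607 to 706) CPM on day 7 and 476 CPM on day 14, and Ctsz at 100.4, 210.4 and 175 CPM, both short of a call. Under median-of-ratios scaling both passed at day 7, which made 5 members higher. That scaling has a log2 factor of -0.32 on this day, which raises the ratio of every gene. The share of all genes called higher under it is not given. Within the main smooth muscle-like cluster, led by Myh11 and Tagln, day 7 against day 3 (54 and 68 cells) gave 1.49 (1.35 to 1.64) for Ctsb, 1.64 (1.45 to 1.87) for Ctsd, 1.14 (1.03 to 1.25) for Ctsl and 0.925 (0.783 to 1.09) for Ctsh. Of 13 hydrolases tested at day 3, Man2b1 alone fell, with a ratio of 0.355 (0.171 to 0.850), a call that median-of-ratios scaling did not give. Naglu, Tfe3 and Tfeb had no UMI at day 0 and 31 to 82, 32 to 69 and 23 to 41 UMIs on the days they were called. Class II genes were called from 0 UMIs as well, 2 of 4 tested at day 3 and 4 of 4 at day 7, with Cd74 at 13.2 and 75.8 CPM. Cst3 was called on no day, with 1858 CPM at day 0 and ratios of 0.784 (0.677 to 0.914), 0.983 (0.845 to 1.15) and 1.75 (1.51 to 2.04) at days 3, 7 and 14. Ctss stayed under the day 0 floor of 30.1 CPM, at 4.02, 12.3 and 3.12 CPM.

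Monocyte/macrophage-like cells had the highest summed level of the 9 genes, 8768, 8189 and 7705 CPM at days 3, 7 and 14, and were compared with day 3, since day 0 held 2 such cells. Ctss was nearly level at 1913, 2024 and 2079 CPM, with ratios of 1.06 (1.03 to 1.08) and 1.09 (1.04 to 1.13). At 1000 UMIs a cell it was seen in 77.8%, 78.3% and 80.3% of these cells, and without thinning in 96.6%, 96.0% and 95.2% at median depths of 8027.5, 9386 and 8610.5 UMIs. Ctsb was at 2399.6, 1822 and 1717 CPM, Ctsc at 1225, 1137 and 875 CPM and Ctsd at 943, 737 and 653 CPM, each highest at day 3, with day 14 at 0.715 (0.686 to 0.746), 0.714 (0.673 to 0.757) and 0.693 (0.647 to 0.741) of it and no call. Apart from Ctsk, Ctsl showed the widest difference, with 780.4 (757 to 804), 366 (354 to 379) and 278 (253 to 306) CPM on the 3 days, and fell at days 7 and 14, with ratios of 0.469 (0.449 to 0.491) and 0.356 (0.322 to 0.394). The call of day 7 was close to the threshold and was lost under median-of-ratios scaling, with doublets kept and with the shallower barcode copies kept (log2 ratios of -0.92 under the first and -0.97 under the last). That of day 14 held in every alternative, at -1.49 to -1.32.

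Ctsh went the other way, with 456 (439 to 475), 721 (704 to 738) and 864 (819 to 912) CPM at days 3, 7 and 14 and ratios of 1.58 (1.51 to 1.65) and 1.89 (1.77 to 2.02), short of a call. Under median-of-ratios scaling it passed at day 14. Ctsz was at 674, 803 and 886 CPM and Ctsa at 372, 335 and 347 CPM. By the rule, 1 member was higher (Ctsk, described below) and 1 lower (Ctsl) at day 7, where 1.21% and 0.736% of all genes were called. At day 14, 0 were higher and 1 lower (Ctsl), against 2.25% and 2.2%. The members' median log2 ratio was -0.11 and -0.10, close to -0.07 and -0.09 over all genes.

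Ctsb, Ctsd and Ctsl separated the clusters of the class, whereas Ctss did so less. The levels below are sums over all days, which each cluster drew on unequally. In the cluster led by Plac8 and Chil3, genes of recently arrived monocytes (463 cells), Ctsb was 782 CPM, Ctsd 216 CPM and Ctsl 200.5 CPM. In the cluster led by Ccl6 (353 cells) they were 2849.6, 1236 and 1061 CPM. In the cluster led by Ms4a7 and C1qa (389 cells) they were 2502, 941 and 342 CPM, so that Ctsl was low beside a high Ctsb. Ctss was 1978, 1923 and 2388 CPM in the same 3 clusters. Ctsb was highest in the cluster led by Ccl8 and Ccl12 (3825 CPM in 32 cells) and lowest in a cycling cluster led by Mgl2 and Mki67 (356 CPM in 29 cells). The latter passed for 9 of the class markers, with 0 of them among its leading genes. Mgl2 was also a leading gene of the dendritic-like cluster led by Cd209a, and Ctsb in dendritic-like cells was 264 to 305 CPM. Whether these 29 cells were dendritic was not tested. Ctsh was highest in the Ms4a7 and C1qa cluster (923 CPM) and 462 CPM in the Ccl6 cluster. The clusters were made without the cathepsin genes.

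**Figure D4:**
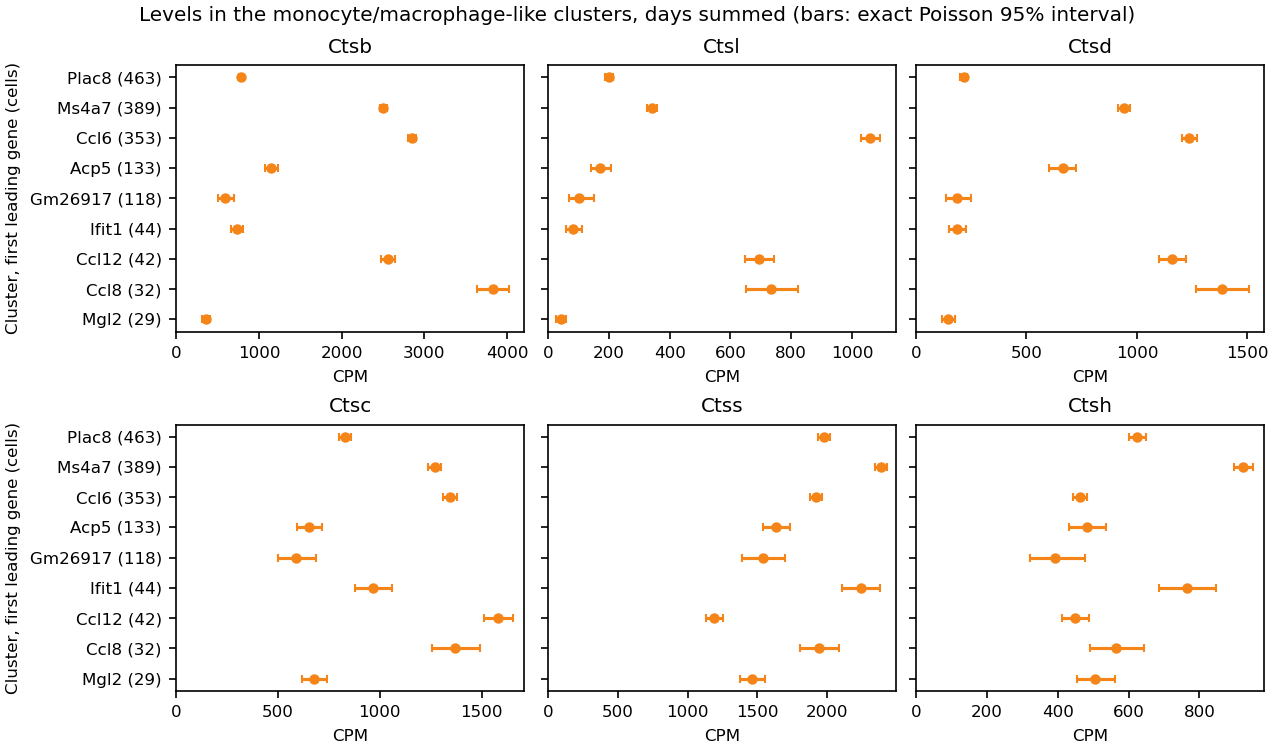
Levels (CPM, linear axis) of 6 genes in the 9 monocyte/macrophage-like clusters, named by their first leading gene with the cell number, with all days summed and exact Poisson 95% intervals as bars. Ctsb, Ctsd and Ctsl are low in the Plac8 and Chil3 cluster and high in the Ccl6 cluster, and the Ms4a7 and C1qa cluster is high in Ctsb, Ctss and Ctsh but not in Ctsl.

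The days drew on these clusters unequally. The Ccl6 cluster held 280, 65 and 7 cells of days 3, 7 and 14, the Plac8 and Chil3 cluster 69, 378 and 16, and the Ms4a7 and C1qa cluster 36, 251 and 101. Within these clusters Ctsl was not called lower at day 7. Its ratio of day 7 to day 3 was 0.80 (0.745 to 0.859) in the Ccl6 cluster, 0.941 (0.762 to 1.17) in the Plac8 and Chil3 cluster and 1.75 (1.41 to 2.20) in the Ms4a7 and C1qa cluster, and in the last that of day 14 to day 3 was 1.51 (1.19 to 1.92). Ctsh was not called in them either, with ratios of 1.26 (1.14 to 1.39), 1.77 (1.52 to 2.07) and 1.47 (1.29 to 1.66) at day 7. In the Ms4a7 and C1qa cluster, Ctsb went from 1304 CPM in 36 cells of day 3 to 2866 CPM at day 7 and 1848 CPM at day 14, and Ctsd from 429 to 1058 and 781 CPM, so that both rose past 2-fold at day 7 in this cluster alone of the 3 (2.20 (2.02 to 2.40) and 2.47 (2.13 to 2.88)).

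Ctsk in this class rested on single cells. It was at 4.15, 245 and 5.81 CPM at days 3, 7 and 14, a ratio of 59.0 (39.2 to 93.2) at day 7. Of 2338 Ctsk UMIs at day 7, 1478 lay in a cell of 64618 UMIs and 802 in a cell of 49636 UMIs, and the next cell of 903 had 4. Those 2 cells, which were looked at after the value was seen, also held 727 and 573 UMIs of Acp5, 708 and 280 of Mmp9, 83 and 93 of Atp6v0d2, 35 and 38 of Ocstamp and 17 and 28 of Dcstamp, genes known from osteoclasts and from the fusion of their precursors, and 3 and 1 of the collagen gene Col1a1. Both were in the cluster led by Acp5 and Ocstamp. Without cells over 30000 UMIs, the log2 ratio of day 7 to day 3 went from 4.17 to 0.32, and without that cluster to 0.20, with no call in either. Of all cells of the class, 2.82%, 5.98% and 4.22% had a Ctsk UMI at days 3, 7 and 14, against 3.17% of T cell-like cells of day 7.

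**Figure D5:**
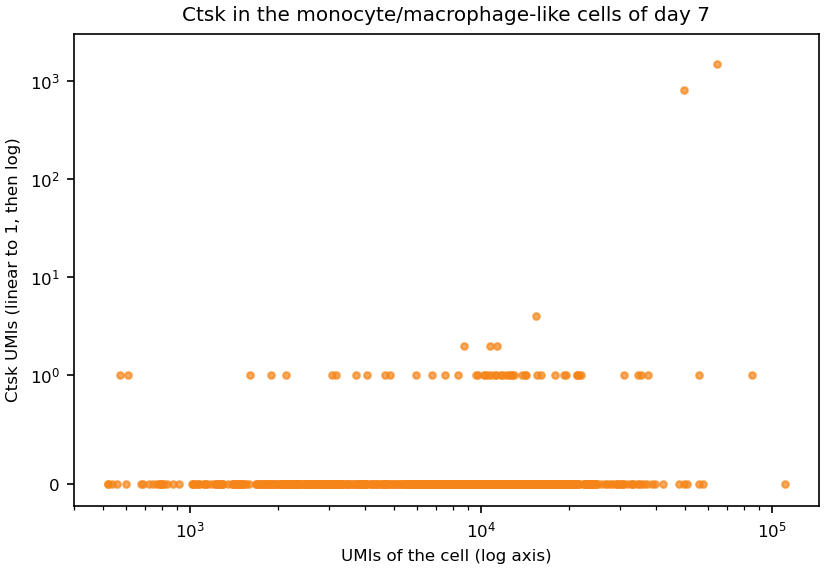
Ctsk UMIs (vertical axis, linear to 1 and then log) against all UMIs of the cell (log axis) in the 903 monocyte/macrophage-like cells of day 7, 1 point a cell. The points at 1478 and 802 Ctsk UMIs stand apart from all others, which have 4 or fewer.

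Among the other lists, 5 of 7 class II genes were higher in monocyte/macrophage-like cells at day 7 and 4 of 7 at day 14. The shares of all genes were 1.21% and 2.25%. Dendritic markers in the same sums were at 4397, 9854 and 11319.5 CPM at days 3, 7 and 14, and their part was not tested. Cd74, the invariant chain that Ctss cuts, rose by 2.13 (2.11 to 2.16) and 2.21 (2.17 to 2.25), and H2-Eb1 by 2.29 (2.25 to 2.34) and 2.69 (2.62 to 2.77), while Ctss itself was level. Of 8 inhibitor genes tested at day 7 and 5 at day 14, 0 were called, and Cst3 was 1.97 (1.90 to 2.03) of its day 3 level at day 14, which passed 2-fold under median-of-ratios scaling. Of 15 other hydrolases, Acp5 alone was called at day 7 (ratio 6.23, interval 5.33 to 7.32), and 727 and 573 of the 1870 Acp5 UMIs of day 7 lay in the same 2 cells as Ctsk. Atp6v0d2, a proton pump subunit, was called at day 7 and 83 and 93 of its 192 UMIs lay there too. Tfec, of the same family as Tfeb, fell to 0.101 (0.0324 to 0.240) at day 14 and Igf2r to 0.223 (0.110 to 0.410).

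Dendritic-like cells had Ctss at 1449.99, 1381 and 1104, Ctsh at 749.8, 830.3 and 701 and Ctsz at 763, 716 and 571 CPM at days 3, 7 and 14, the last day with 39 cells. Ctsd was at 148 (133 to 163), 66.7 (59.4 to 74.6) and 74.4 (47.7 to 111) CPM and fell at day 7 (ratio 0.452, interval 0.388 to 0.526). Ctsc was at 392 (369 to 417), 324 (308 to 341) and 161 (120.4 to 211) CPM and fell at day 14 (ratio 0.411, interval 0.305 to 0.543). Hence 0 of 8 members tested were higher and 1 lower at each of days 7 and 14, beside 0.982% and 0.712% of all genes at day 7 and 3.89% and 4.88% at day 14. Both calls were lost as the mean of each cell's CPM, with doublets kept and with the shallower barcode copies kept, that of Ctsd also without cells over 30000 UMIs and that of Ctsc also with each library clustered on its own. Of 7 inhibitor genes tested at day 7, Serpina3g and Serpinb6b rose, by 4.65 (2.98 to 7.61) and 2.28 (1.87 to 2.81). Within the main cluster, led by Cd209a and Clec10a, Ctsd had a ratio of 0.431 (0.368 to 0.504) at day 7 and Ctsc one of 0.460 (0.340 to 0.610) at day 14. The cluster of mature cells led by Ccr7 and Ccl22 (89 cells) was higher in Ctsh (1075 against 762 CPM in the Cd209a cluster) and lower in Ctss (735 against 1493 CPM), Ctsc (90.6 against 378 CPM) and Ctsa (53.0 against 251 CPM).

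Neutrophil-like cells, present at days 3 and 7, had Ctsd at 1368 (1281 to 1459) and 1079 (976 to 1189.97) CPM, Ctsb at 812 and 601 CPM and Ctsz at 339 and 318 CPM. Ctsc and Ctss were low there, at 104 and 67.4 CPM and at 104 and 202 CPM. Class II genes were higher at day 7 in 6 of 6 tested in these cells, against 3.83% of all genes. Summed markers went from 189 to 1189 CPM for dendritic cells and from 970 to 2414 CPM for fibroblasts. The part of such transcripts in these levels was not tested. In NK cell-like cells Ctsd led as well, with 583, 391 and 545 CPM at days 3, 7 and 14, and Ctsc was 145, 99.9 and 149.8 CPM. With each library clustered on its own, their log2 ratios of day 14 to day 3 were -0.71 and -0.93, against -0.10 and 0.05. Of the genes whose products Ctsc activates, Gzma was at 10272, 4149 and 5616 CPM in NK cell-like cells on these days and Gzmb at 1879, 578.6 and 578.6 CPM, and 3 of 3 tested were called lower at day 7 and 2 of 3 at day 14, against 2.35% and 5.44% of all genes. In T cell-like cells 2 of 3 were called lower on both days, against 1.34% and 2.82%. NK cell markers in T cell-like cells summed to 3619, 1233 and 1308 CPM at days 3, 7 and 14. The T cell-like cluster led by Ccl5 and Cd3d held 42 of 66, 168 of 378 and 37 of 96 cells on these days. The part of either in the lower calls was not tested. T cell-like cells had a summed level of 459, 679, 656 and 746 CPM for all 9 genes at days 0, 3, 7 and 14, the lowest of the classes, led by Ctsd (111, 296, 212 and 261 CPM). Ctsh in T cell-like cells was 10.4 (2.83 to 26.5) CPM at day 3 and 54.4 (36.7 to 77.7) CPM at day 14 (ratio 5.25, interval 1.85 to 20.5), and Cd74 in the same cells was 54.4 and 1377 CPM, so that transcripts of antigen-presenting cells moved with it and their part was not tested. The log2 ratio of Ctsh was 1.66, and the call was lost with doublets kept (0.68) and as the mean of each cell's CPM (0.91). B cell-like cells of day 14 (21 cells) had Ctss and Ctsh (211 CPM) but little Ctsd and Ctsb (24.8 and 37.2 CPM, 2 and 3 UMIs).

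Endothelial-like cells, 40 at day 3 and 55 at day 7, were shallow, with medians of 1112.5 and 1706 UMIs. Ctsd was 219 (159 to 294) and 646 (590.1 to 707) CPM, a ratio of 2.95 (2.17 to 4.12), and Ctsl 94.5 (56.9 to 148) and 282 (245 to 323) CPM, a ratio of 2.98 (1.86 to 5.05). Ctsb was 269 and 351 CPM and Ctsz 294 and 200.4 CPM. Ctsk was at 0 and 3 UMIs, and Ctsc at 1 and 11 UMIs. Of 7 members tested, Ctsd and Ctsl were called higher, against 11.1% of all genes, a count that changed with the processing. Transcripts of other cells moved in the same sums, and their part was not tested. The class II genes were higher in 4 of 4 tested, with a median log2 ratio of 1.93, and summed markers went from 84.6 to 394 CPM for dendritic cells, 975.02 to 2142 CPM for fibroblasts and 647 to 1023 CPM for monocytes and macrophages. Without cells over 30000 UMIs (48 cells at day 7 and 38 at day 3), the log2 ratios were 2.63 for Ctsd, 3.59 for Ctsl, 1.98 for Ctsb and -0.08 for Ctsz, against 1.52, 1.48, 0.37 and -0.53 with them. As the mean of each cell's CPM, Ctsb was at 2.39 and Ctsz at 0.12. Ctsa was at 0.56 in the sums, 1.99 without the deep cells and 2.01 as that mean, and Ctsh at 0.87 in the sums, 2.099 as that mean and 1.10 under median-of-ratios scaling.

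Likeness of pattern was measured by Pearson's r of log2(CPM + 10) over the 25 class-day sums of at least 20 cells, among 9459 genes with at least 500 UMIs. These sums share libraries and classes, so r is a description and carries no p. Ctss was most like the class II genes H2-DMa and H2-Ab1 (r = 0.95 for both) and the transcription factor gene Irf5 (0.95), and Ctsc most like the Fc receptor gene Fcgr2b (0.95). Ctsl was most like Cd302 (0.94), Tmem205 and Rnase4, and Ctsk most like the stromal genes Clmp (0.90), Col14a1 and C4b. Ctsa was most like Psap (0.95), the saposin precursor gene, Ctsb like Pla2g15 (0.95), a lysosomal phospholipase gene, and Ctsz and Ctsh like Asah1 (0.93 and 0.90), the acid ceramidase gene. Ctsd had no close partner, with Comtd1 first at 0.81. Among the members, Ctsh and Ctsz were most alike (0.92), then Ctsc and Ctss (0.87), Ctsa and Ctsz (0.84), Ctsa and Ctsb (0.83) and Ctsk and Ctsl (0.81), and Ctsk and Ctss ran in opposite directions (-0.42).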

How the data were processed

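Single-cell RNA-seq libraries of the carotid artery were analysed, 1 for each of days 0, 3, 7 and 14. The authors deposited filtered matrices of raw UMI counts per gene and barcode, made with Cell Ranger 3.0.2 per the file headers. The genome build was not settled, so no gene coordinates of the files were used. Depth was 2672722 to 27973418 counts a library.

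Barcodes with under 200 genes or over 20% mitochondrial counts were left out (453), as were the shallower copies of shared barcodes and 86 likely doublets. Doublets were ranked with Scrublet and taken at 0.8% per 1000 barcodes, because its own threshold marked 17. Cells were clustered with scanpy 1.11.5 and leidenalg 0.10.2 (2000 variable genes without the cathepsins and the other listed genes, 30 components, 15 neighbours, resolution 1) and named from at least 3 markers. No cell type annotation was used, so classes may differ from the study's. Clusters without enough markers, or too shallow, stayed unnamed.

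Counts were summed by class and day and scaled to CPM. With 1 library a day there was no test. Days were compared with day 0 (fibroblast-like, smooth muscle-like) or day 3 (immune and endothelial-like). The calls were tested on simulated counts with 200 genes changed. All 9 members were described, from each list the up to 4 genes with the largest ratios were named, and for each member the 3 genes most like it. The members, lists and classes were chosen with earlier results of these data known. Alternatives were the mean of each cell's CPM, median-of-ratios scaling, no added value, no minimum of UMIs, doublets kept, a stricter cell filter, deep cells left out, libraries clustered singly, resolution 1.5, all variable genes, and, added after seeing the data, the copies kept and 3 other choices of clusters. Some list and cluster genes are not reported here.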

Additional observations from a re-analysis of the deposited data

How the results depend on the processing

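The 126 ratios of members with enough UMIs were recomputed under each alternative that applied to them. A ratio is said to have moved when it shifted, on the log2 scale, by more than the one-sided width of its counting interval, and one near 2-fold can lose or gain a call without that. Under the stricter cell filter, 0 of 126 ratios moved. Dropping the minimum of UMIs changes which genes can be called and not the ratios, so its 0 of 126 was fixed beforehand and shows no stability. As the mean of each cell's CPM 35 of 126 moved, without cells over 30000 UMIs 29 moved and 1 called ratio changed sign, with each library clustered on its own 25 moved and under median-of-ratios scaling 19. That one was Ctsh in smooth muscle-like cells of day 3 without cells over 30000 UMIs, at a log2 ratio of -0.022. Ratios that were not called changed sign more often, such as Ctsl in dendritic-like cells of day 14, from 0.72 to -0.90 with all variable genes used.

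Counts of members called were recomputed under the alternatives in 4 classes. In endothelial-like cells, not among these, the higher count was 2, and 3 under median-of-ratios scaling. As the mean of each cell's CPM, Ctsa, Ctsb and Ctsh passed 2-fold there as well. In the 4 classes the counts moved by over 1.5 times as follows, and the cause was not tested. The shares of all genes called under the alternatives are not given, so none of these counts has a background beside it. In fibroblast-like cells, the higher count of day 3 was 1 as the mean of each cell's CPM and with no value added. That of day 7 was 2 as the mean of each cell's CPM and without cells over 30000 UMIs, and 0 with each library clustered on its own, where the lower count was 1. That of day 14 was 0 as the mean of each cell's CPM. In smooth muscle-like cells, as the mean of each cell's CPM the lower count was 1 at day 3 and the higher count 3 at day 14. The higher count was 0 at day 3 without cells over 30000 UMIs, and 5 at day 7 under median-of-ratios scaling, with doublets kept, with each library clustered on its own and at resolution 1.5. In monocyte/macrophage-like cells of day 7, the lower count was 0 under median-of-ratios scaling, with doublets kept and with the shallower copies kept, and the higher count was 0 without cells over 30000 UMIs and without the Acp5 and Ocstamp cluster. At day 14 the higher count was 1 under median-of-ratios scaling. In dendritic-like cells, the lower count of day 7 was 0 as the mean of each cell's CPM, with doublets kept, without cells over 30000 UMIs and with the shallower copies kept. That of day 14 was 0 as the mean of each cell's CPM, with doublets kept, with each library clustered on its own (where the higher count was 1) and with the shallower copies kept, and 2 under the stricter filter, at resolution 1.5 and with all variable genes.

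The log2 factors of median-of-ratios scaling are subtracted from the log2 ratios, so a negative one raises them. They were -0.12, -0.04 and -0.09 in fibroblast-like cells and -0.31, -0.32 and -0.15 in smooth muscle-like cells of days 3, 7 and 14, and -0.15 and -0.10 in monocyte/macrophage-like cells of days 7 and 14, and 0.06 in dendritic-like cells and 0.10 in NK cell-like cells of day 14 and 0.07 in neutrophil-like cells of day 7, where ratios fell. No paired analysis was possible because each day was 1 library. Among the reference days of the classes compared with day 0, depth limited the smooth muscle-like cells, where 3 UMIs correspond to 30.1 CPM.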

Other observations

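Unnamed cells numbered 35, 79, 464 and 84 at days 0, 3, 7 and 14 and entered no comparison, apart from the alternative that counted 1 of their clusters as fibroblast-like. At day 7 they held Ctsl at 944 (901 to 988) CPM, Ctsb at 454 CPM, Ctsk at 304 CPM and Ctss at 173 CPM. That cluster, of 37 cells led by Wisp2 and Rgs5 of which 35 were of day 7, had Ctsl at 1093 CPM and a median of 41432 UMIs a cell. Another 340 of the unnamed cells lay in a cluster with a median of 749.5 UMIs.

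The 18 endothelial-like cells of day 14 had 47852 UMIs in all and cathepsin levels unlike those of days 3 and 7. Ctsb was 1546 (1214 to 1941) CPM, Ctss 1087 (812 to 1425) CPM, Ctsd and Ctsz 1003 (739.6 to 1329.96) CPM each and Ctsl 815 (579.6 to 1114) CPM, where Ctss had been 14.9 and 25.4 CPM at days 3 and 7. Monocyte/macrophage-like cells of day 14 held Ctss at 2079 CPM, and the part of their RNA in these 18 cells was not tested.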
